A study of Neurospora crassa with 6 samples.

Results

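Fungal cells move metals and ions through membranes with dedicated transporter proteins, and the genes named for these proteins in Neurospora crassa were followed here across 2 mutant strains. Genes were taken by name, as every entry of the count table whose identifier joins tcu, tzn, trm, nca, cax, trk, hak, ena, pmr or pma to a number, which gave 12 genes of 9757. These were 3 copper transporter genes (tcu-1, tcu-2 and tcu-3), 2 zinc transporter genes (tzn-1 and tzn-2), 4 calcium pump genes (nca-1, nca-2, nca-3 and pmr-1), the potassium transporter gene hak-1, the sodium pump gene ena-1 and the proton pump gene pma-1. The prefixes trm, cax and trk matched 0 genes in this form. The table holds cax and trk under names without a number, and both are described where they bear on calcium and potassium.

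The libraries came from overnight mycelium, which grew on 1.5% sucrose in the minimal medium of Vogel, 3 of a strain deleted for cac-1 (the single knockout) and 3 of a strain labelled as deleted for cac-1 and suz-12 (the double knockout). Both strains are thus cac-1 knockouts. This gene encodes a subunit of the histone chaperone chromatin assembly factor 1, and suz-12, the other gene named in the double knockout's label, encodes a subunit of Polycomb repressive complex 2. The comparison asks how transcript levels differ once suz-12 is removed as well. No wild-type strain was analysed here, and the labels do not say whether libraries of a strain came from separate cultures, so that p-values measure the spread between these libraries, which may be technical.

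Copper enters fungal cells through small membrane proteins of the Ctr family, and zinc through transporters of the ZIP family. Calcium is pumped out of the cytosol by P-type ATPases, which place it in the endoplasmic reticulum, the Golgi, the vacuole or outside the cell. The plasma membrane proton pump builds the gradient and the voltage that drive potassium uptake and most other nutrient transport, while a sodium-pumping P-type ATPase keeps sodium low in the cytosol.

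Library totals ran from 7989915 to 28327383 counts, with the lowest in single-knockout replicate 1. No count fell on cac-1 in any library. For suz-12 the locus NCU05460 was read, a pairing known from the organism that the table does not give. It was at 8.67, 7.36 and 9.13 CPM (counts relative to the TMM-scaled library total) in the single knockout and at 2.39, 2.40 and 3.26 CPM in the double knockout, where 54, 70 and 55 counts remained. The label of the double knockout is therefore not borne out by an absence of reads, as it is for cac-1. The mating-type gene matA-1 had 0 counts in all 3 single-knockout libraries and 1000 to 1387 in the double knockout. The strains therefore differed at the mating-type locus as well as at suz-12, and the part of these differences in the results below cannot be told apart.

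All 12 transporter genes passed the filter on low counts. Of these, 5 were called at an adjusted p under 0.05, against 28.1% of all 9148 genes tested. The genes ena-1 and nca-2 rose in the double knockout (16.1% of all genes were called higher), and tcu-1, hak-1 and nca-1 fell (11.9% of all genes were called lower). Changes past 2-fold were found for ena-1 and tcu-1. The median log2 fold change of the 12 genes was -0.12, against -0.00089 over all genes, and the median of its size without regard to sign was 0.33, against 0.34. In 6 of the 12 genes no library of one strain reached the range of the other, which was so for 42.3% of all genes. As the libraries are bulk RNA, a lower level in all cells cannot be told apart from fewer cells that express the gene.

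**Figure D1:**
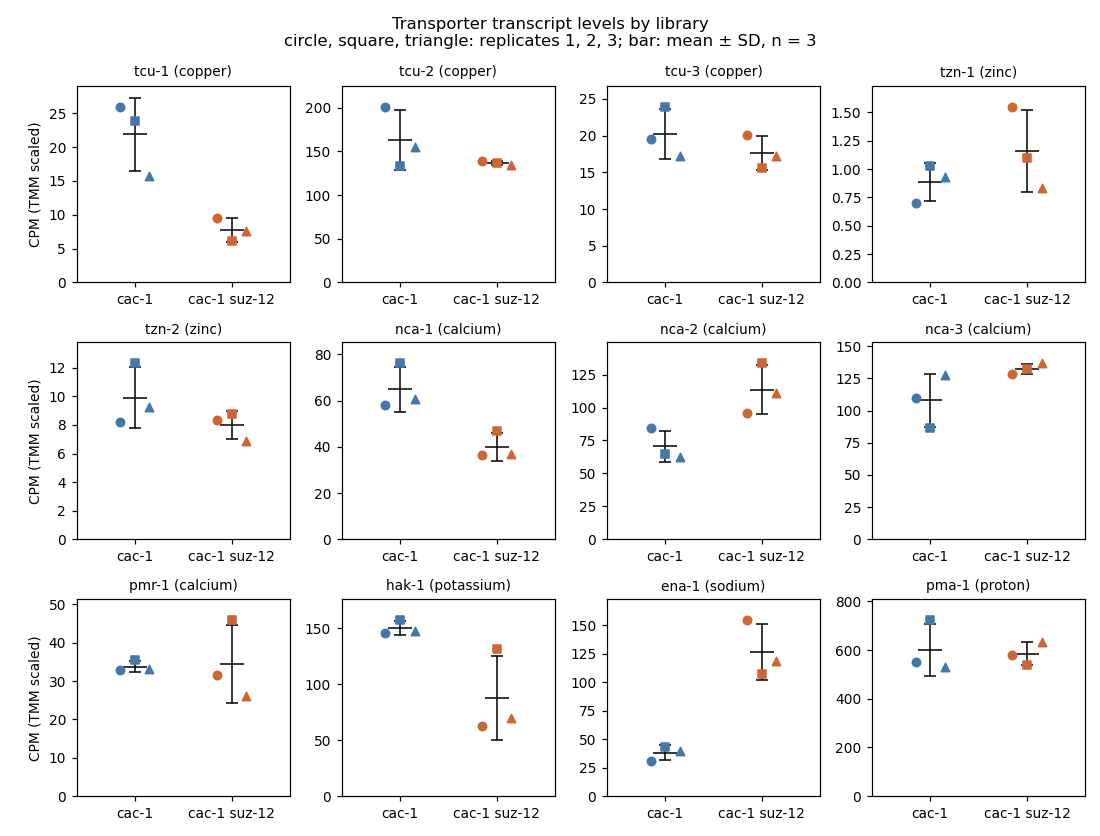
Level of each transporter transcript in the 6 libraries, in CPM with TMM scaling on a linear axis from 0, for the cac-1 knockout (blue) and the cac-1 suz-12 double knockout (orange), with the mean and SD of 3 libraries in black. The strains separate widely for ena-1 and tcu-1, while in hak-1 double-knockout replicate 2 lies close to the single knockout.

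**Figure D2:**
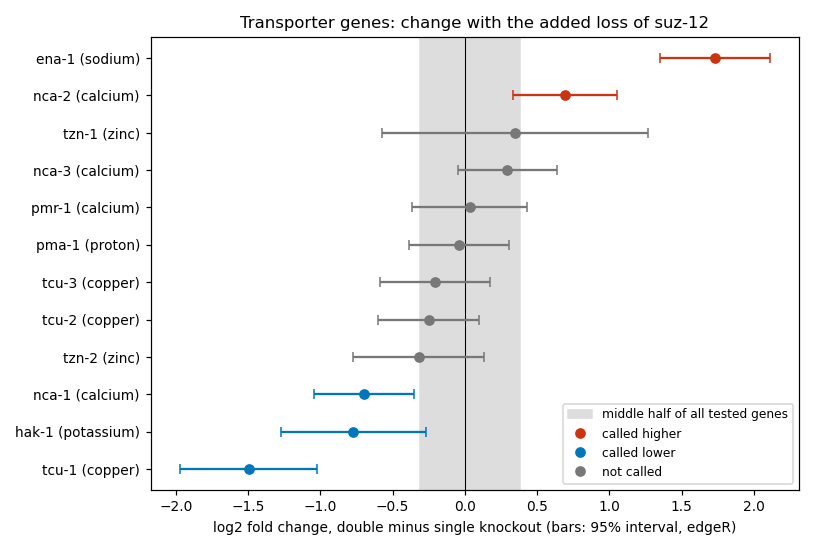
Log2 fold change of each transporter gene, double minus single knockout, with its 95% interval from edgeR. The grey band spans the 25th to the 75th percentile of all genes tested, and of the 12 genes only ena-1 and nca-2 (red) were called higher and only tcu-1, hak-1 and nca-1 (blue) called lower.

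Among the copper transporter genes, tcu-1 fell and the other 2 did not pass the test. The gene tcu-1 (NCU00830, linkage group I, 7030697 to 7031605, 2 counted intervals on the minus strand) encodes the high-affinity copper importer of this fungus. Its level was 26.0, 23.9 and 15.8 CPM in single-knockout replicates 1, 2 and 3 and 9.57, 6.06 and 7.59 CPM in those of the double knockout. Every double-knockout library was below every single-knockout library. The mean was 21.9 ± 5.39 CPM in the single knockout and 7.74 ± 1.76 CPM in the double knockout (SD, n = 3 each). The log2 fold change of -1.50 (95% interval -1.97 to -1.02, SE 0.224) equals a 2.82-fold lower level (edgeR adjusted p = 9.07e-05). It ranked 99 from the bottom among the 9148 log2 fold changes. The call held in every alternative run.

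The gene tcu-2 (NCU03281, linkage group I, 5169654 to 5170589), another Ctr-family gene, was at 201, 134 and 155 CPM in the single knockout and at 139.5, 137 and 135 CPM in the double knockout. Its libraries overlapped between strains, and the log2 fold change was -0.25 (95% interval -0.60 to 0.10, edgeR adjusted p = 0.282). The third gene, tcu-3 (NCU07428, linkage group I, 662738 to 663351), was at 19.6, 24.0 and 17.2 CPM and at 20.1, 15.5 and 17.3 CPM. These also overlapped, with a log2 fold change of -0.20 (95% interval -0.58 to 0.18, edgeR adjusted p = 0.432). Both intervals reach below -0.5, so that a moderate fall is not excluded at this precision.

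Levels of different genes were compared per length, as CPM per kb of counted sequence (RPKM). By this measure tcu-2 led the copper transporter transcripts in each library, with 271 ± 57.4 RPKM in the single knockout against 36.3 ± 6.15 RPKM for tcu-3 and 28.6 ± 7.04 RPKM for tcu-1 (SD, n = 3 each). The share of tcu-1 in the summed RPKM of the 3 genes was 8.44%, 10.5% and 6.71% in the single knockout and 4.47%, 3.01% and 3.76% in the double knockout. These shares compare genes within a library and do not depend on how libraries are scaled. The ratio of tcu-2 to tcu-1 transcript per length was 9.78 ± 2.65 in the single knockout and 23.2 ± 5.13 in the double knockout (SD, n = 3 each), with no overlap between libraries. The shares and this ratio restate the fall of tcu-1 and carry no test.

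The gene next to tcu-1 fell with it. NCU00829, for which the tables give no name, starts 1674 bp beyond the counted end of tcu-1 and lies on the opposite strand, so that the genes point away from each other. It was at 51.0, 37.5 and 28.3 CPM in the single knockout and at 12.9, 13.1 and 14.9 CPM in the double knockout. It fell by 1.50 ± 0.200 on the log2 scale (SE, edgeR adjusted p = 2.67e-05), about as much as tcu-1. In the single knockout both genes were highest in replicate 1 and lowest in replicate 3. On the other side, scp showed a log2 fold change of 0.28 and was not called (edgeR adjusted p = 0.190). Farther on that side, NCU00832 had a log2 fold change of -0.39 and was not called (edgeR adjusted p = 0.122), and NCU00833 was called lower at -0.46 (edgeR adjusted p = 0.0325). The call of NCU00833 was lost in 4 of the 6 fits that left out one library, with an edgeR adjusted p up to 0.162. Beyond NCU00833, NCU00834 stood at -0.32 and NCU00835 at 0.58, and neither was called (edgeR adjusted p = 0.269 and 0.0556). The genes named farther out than scp were picked out after their values were seen.

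The run of lower genes continued beyond NCU00829. The next gene, NCU00828, had a log2 fold change of -0.79 (edgeR adjusted p = 0.00668), and the one after it, NCU00827, of -0.60 (edgeR adjusted p = 0.0360). Both genes were picked out after their values were seen. The call of NCU00827 was lost in 4 of the 6 fits that left out one library, with an edgeR adjusted p up to 0.153, and that of NCU00828 was kept in all 6. The following gene, NCU00826, had a log2 fold change of -0.54 and was not called (edgeR adjusted p = 0.146). The tcu-1 locus lies 2741 kb from the end of the last gene listed on its chromosome, on the nearer side.

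**Figure D3:**
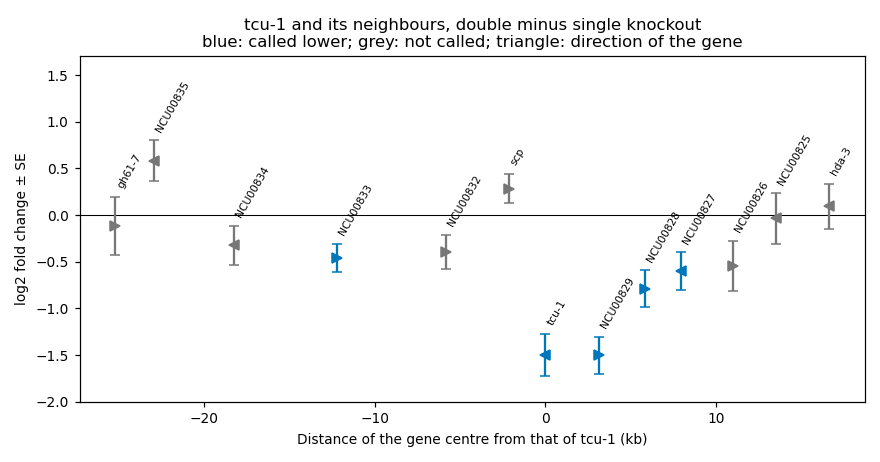
Log2 fold change with its SE, double minus single knockout, of tcu-1 and the 6 genes on each side, against the distance in kb from tcu-1, with triangles pointing along each gene's strand. The fall was deepest at tcu-1 and NCU00829 among the genes drawn and smaller at NCU00828 and NCU00827. On the other side scp and NCU00835 lay above 0, NCU00832 at -0.39 was not called and NCU00833 at -0.46 was called lower.

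The other genes of metal handling that the table names were cmt, sod-1, sre and T. Of the 4, cmt rose, sod-1 fell and 2 did not pass the test, while 28.1% of all genes tested were called. The gene cmt (NCU05561) encodes copper metallothionein, a small protein that binds copper. It was at 1005, 795 and 921 CPM in the single knockout and at 1452, 1197 and 1408 CPM in the double knockout, with no overlap. On the log2 scale it rose by 0.58 ± 0.161 (SE, edgeR adjusted p = 0.0131). The call was lost without single-knockout replicate 2 (edgeR adjusted p = 0.0667), without double-knockout replicate 1 (0.0517) and on library totals (0.0796).

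The gene sod-1 (NCU02133) encodes the copper- and zinc-containing superoxide dismutase. It was at 333, 454 and 387 CPM in the single knockout and at 246, 257 and 174 CPM in the double knockout, again with no overlap. On the log2 scale it fell by 0.80 ± 0.179 (SE, edgeR adjusted p = 0.00320). The GATA factor gene sre, which regulates siderophore synthesis, had a log2 fold change of -0.38 (edgeR adjusted p = 0.0675). It was called lower on library totals (edgeR adjusted p = 0.0168), with upper-quartile scaling (0.0293) and without single-knockout replicate 3 (0.0430). With one library left out, the highest edgeR adjusted p of sre was 0.213. The tyrosinase gene T, which encodes a copper enzyme, had a log2 fold change of -0.43 (edgeR adjusted p = 0.585) and was at 6.79 CPM in single-knockout replicate 1 and at 1.07 to 3.29 CPM in the other libraries. Copper itself was not measured in these samples.

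Neither zinc transporter gene was called. The gene tzn-2 (NCU11414, linkage group IV, 82226 to 84079) was at 8.20, 12.3 and 9.22 CPM in the single knockout and at 8.37, 8.77 and 6.88 CPM in the double knockout. Its log2 fold change was -0.32 (95% interval -0.77 to 0.13, edgeR adjusted p = 0.290). It lies 82.2 kb from the end of its chromosome. Ends were taken as the first base of a chromosome or the end of its last listed gene. By that measure tzn-2 was the only one of the 12 genes within 200 kb of an end, beside 730 of the 9148 genes tested. Facultative heterochromatin of this fungus lies largely in such regions.

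The gene tzn-1 (NCU07621, linkage group IV, 296591 to 297847), which encodes a high-affinity zinc importer, was among the least abundant of the 12 transcripts in both strains. Its counts were 6, 29 and 20 in the single and 35, 32 and 14 in the double knockout, or 0.887 ± 0.168 and 1.16 ± 0.365 CPM (SD, n = 3 each). Its log2 fold change was 0.35 with an interval from -0.57 to 1.27 (edgeR adjusted p = 0.591). The interval includes both 0 and a rise of 2-fold.

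The calcium pump genes moved apart. The gene nca-1 fell, nca-2 rose, and nca-3 and pmr-1 did not pass the test. The gene nca-1 (NCU03305, linkage group I, 5258991 to 5262130) encodes the pump of the endoplasmic reticulum type. It was at 58.1, 76.1 and 60.7 CPM in the single knockout and at 36.5, 47.1 and 36.7 CPM in the double knockout. All double-knockout libraries were below all single-knockout libraries, with a log2 fold change of -0.70 (SE of 0.164, 95% interval -1.04 to -0.35, edgeR adjusted p = 0.00422), or 1.62-fold lower.

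The gene nca-2 (NCU04736, linkage group VI, 615418 to 619986) encodes a pump of the plasma membrane type. Its level was 84.2, 64.6 and 62.6 CPM in the single knockout and 96.0, 133 and 111 CPM in the double knockout. The libraries did not overlap, though single-knockout replicate 1 and double-knockout replicate 1 lay close. The log2 fold change was 0.69 (SE 0.169, 95% interval 0.33 to 1.05, edgeR adjusted p = 0.00573), or 1.62-fold higher. On library totals without TMM it was 0.51 and the call was lost (edgeR adjusted p = 0.0574). The median over all genes was then at -0.20.

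The gene nca-3 (NCU05154, linkage group VI, 3553035 to 3556649), which encodes a pump linked to the vacuole, was at 109.9, 86.3 and 127.8 CPM in the single knockout and at 128.5, 132 and 137 CPM in the double knockout. Its libraries did not overlap but came within 1 CPM of each other, and the log2 fold change of 0.29 was not called (95% interval -0.05 to 0.64, edgeR adjusted p = 0.190). Its direct neighbours on both sides rose, as was seen after their values were known. NCU05155 had a log2 fold change of 2.80 (edgeR adjusted p = 7.86e-05) and NCU05153 of 1.45 (edgeR adjusted p = 1.99e-06). The next genes out, likewise picked out after their values were seen, were also called higher. These were NCU05156 at 0.69 (edgeR adjusted p = 0.0130) and NCU12132 at 1.19 (edgeR adjusted p = 0.0491), the latter with 4, 24 and 27 counts in the single knockout. In the single knockout NCU05155 had only 6, 12 and 10 counts, or 0.703, 0.427 and 0.463 CPM. It did not enter the fit that required at least 10 counts in every library.

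The gene pmr-1 (NCU03292, linkage group I, 5201681 to 5204926) encodes the Golgi pump for calcium and manganese. It was at 32.8, 35.4 and 33.1 CPM in the single knockout and at 31.6, 45.8 and 26.1 CPM in the double knockout. The double-knockout libraries spread over and under the single-knockout range, with replicate 2 highest. The log2 fold change was 0.035 (95% interval -0.36 to 0.43, edgeR adjusted p = 0.909). Its sign turned on library totals, with upper-quartile scaling, with replicate number as a block and without double-knockout replicate 2.

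Within each library the makeup of the calcium pump transcripts was compared per length, which again does not depend on scaling between libraries. The share of nca-1 in the summed RPKM of the 4 genes was 23.9%, 33.1% and 24.6% in the single knockout and 14.9%, 15.8% and 14.3% in the double knockout. That of nca-2 was 23.8%, 19.4% and 17.5% and then 27.0%, 30.8% and 29.8%. The ratio of nca-2 to nca-1 was 0.998, 0.584 and 0.710 in the single knockout and 1.81, 1.95 and 2.08 in the double knockout, so that the pair was level in single-knockout replicate 1, nca-1 was the more abundant in replicates 2 and 3, and nca-2 was the more abundant in every double-knockout library. The shares of nca-3 and pmr-1 overlapped between the strains. The summed RPKM of the 4 genes was 80.1 ± 2.999 in the single knockout and 88.98 ± 9.29 in the double knockout (SD, n = 3 each) and also overlapped. These ratios and shares were chosen after the levels were seen and carry no test.

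**Figure D4:**
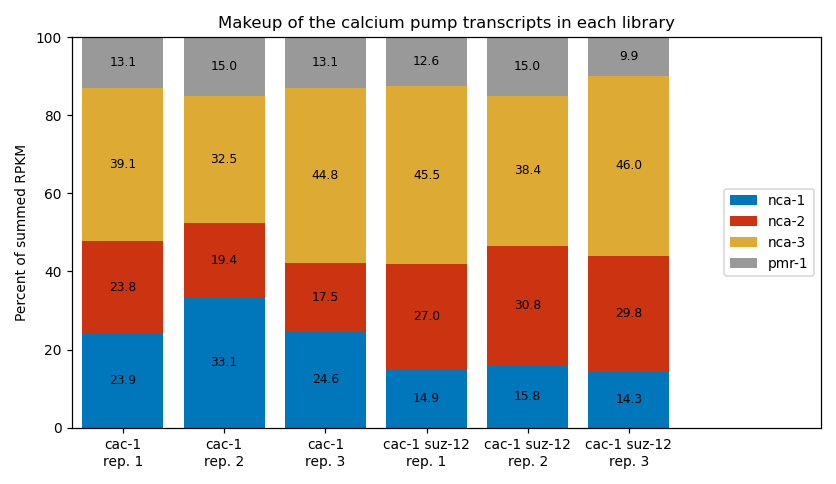
Share in percent of the summed RPKM of the 4 calcium pump genes that each gene held, in each of the 6 libraries, with bars from 0 to 100. The share of nca-1 (blue) lay between 23.9% and 33.1% in the cac-1 knockout and between 14.3% and 15.8% in the double knockout, and that of nca-2 (red) between 17.5% and 23.8% and between 27.0% and 30.8%.

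Other genes of calcium transport and signalling gave no call. The table names 10 of the 25 listed, with a median log2 fold change of 0.29 against -0.00089 over all genes. Of the 10, 0 were called higher or lower by edgeR, DESeq2 or limma-voom, while edgeR called 28.1% of all genes tested. At an unadjusted p under 0.05, edgeR and limma-voom each gave 3 genes (cnb-1, cse-1 and mid-1) and DESeq2 gave 2. The lowest adjusted p-values were those of cnb-1, the regulatory subunit of calcineurin, at 0.38 on the log2 scale (edgeR adjusted p = 0.0686), and cse-1, a neuronal calcium sensor homologue, at 0.37 (edgeR adjusted p = 0.0771). The calcium and proton exchanger gene cax was at 50.02, 33.8 and 51.2 CPM in the single knockout and at 44.8, 45.1 and 44.3 CPM in the double knockout. Its log2 fold change was -0.0037, with an interval from -0.36 to 0.35 (edgeR adjusted p = 0.991).

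For potassium and sodium, hak-1 fell and ena-1 rose. The gene ena-1 (NCU05046, linkage group VI, 3938908 to 3942420) encodes a sodium-exporting P-type ATPase. Its level was 30.7, 43.4 and 39.99 CPM in the single knockout and 154, 107 and 119 CPM in the double knockout. The lowest double-knockout library stood well above the highest single-knockout library. The mean was 38.0 ± 6.58 CPM in the single knockout and 127 ± 24.7 CPM in the double knockout (SD, n = 3 each). The log2 fold change of 1.73 (95% interval 1.35 to 2.11, SE 0.180) equals a 3.31-fold higher level (edgeR adjusted p = 1.71e-06). It ranked 380 from the top among the 9148 log2 fold changes, and the call held in every alternative run. The gene lies 220.0 kb from the end of the last gene listed on its chromosome, so the chromosome end itself may be farther.

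The gene hak-1 (NCU00790, linkage group I, 7161080 to 7163809) encodes a high-affinity potassium transporter. It was at 146, 157 and 147 CPM in the single knockout and at 63.1, 131 and 69.4 CPM in the double knockout. The single-knockout libraries lay close together, while the double-knockout libraries were split, with replicate 2 just below the single knockout and replicates 1 and 3 far below it. The log2 fold change was -0.77 (SE 0.232, 95% interval -1.27 to -0.27, edgeR adjusted p = 0.0242). The call was lost when single-knockout replicate 1 or 2 or double-knockout replicate 1 or 3 was left out. The edgeR adjusted p was then 0.0615 to 0.100. Without double-knockout replicate 2 the log2 fold change was -1.18 (edgeR adjusted p = 4.94e-05).

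The ratio of ena-1 to hak-1 transcript per length was 0.162, 0.213 and 0.209 in the single knockout and 1.88, 0.628 and 1.32 in the double knockout. The ratio was thus below 1 in every single-knockout library and above 1 in double-knockout replicates 1 and 3. It restates the changes of both genes and carries no test. The other potassium transporter gene that the table names, trk, was at 5.07 ± 0.986 and 5.23 ± 0.871 CPM (SD, n = 3 each). Its log2 fold change was 0.062, with an interval from -0.47 to 0.59 (edgeR adjusted p = 0.882).

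The proton pump gene pma-1 (NCU01680, linkage group II, 2726500 to 2729576), which encodes the plasma membrane ATPase, was the highest of the 12 genes in CPM. It was at 550.4, 722 and 529 CPM in the single knockout and at 580.0, 540.1 and 635 CPM in the double knockout. The ranges overlapped, and the log2 fold change was -0.038 (95% interval -0.38 to 0.31, edgeR adjusted p = 0.890), an interval that leaves out a 2-fold change in either direction. Its sign turned without single-knockout replicate 2 and without double-knockout replicate 2. The ratio of ena-1 to pma-1 per length went from 0.0524 ± 0.00857 to 0.178 ± 0.0351 (SD, n = 3 each), with no overlap. This ratio restates the rise of ena-1 and carries no test.

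The vacuolar proton ATPase, which acidifies the vacuole, showed no call either. All 14 of its genes that the table names passed the filter, with a median log2 fold change of 0.088. Of these, 0 were called in either direction by edgeR, DESeq2 or limma-voom, while edgeR called 28.1% of all genes tested. At an unadjusted p under 0.05, edgeR gave 1 gene (vma-5) and DESeq2 and limma-voom each gave 2. Their summed level ran from 2456 to 2592 CPM in the single knockout and from 2550 to 2756 CPM in the double knockout. The largest changes in size were those of vma-11 (-0.35, edgeR adjusted p = 0.131), vma-5 (0.33, edgeR adjusted p = 0.104) and vma-16 (-0.33, edgeR adjusted p = 0.148).

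The order of the 12 genes by RPKM shifted between strains. At the top, tcu-2 and pma-1 stood apart from the rest in both strains and overlapped each other, with 271 ± 57.4 and 217 ± 38.3 RPKM in the single knockout and 227 ± 4.15 and 212 ± 17.2 RPKM in the double knockout (SD, n = 3 each). The next place was taken by hak-1 in the single knockout, at 57.96 ± 2.32 RPKM and above tcu-3 without overlap. In the double knockout nca-3, ena-1, hak-1, tcu-3 and nca-2 followed one another from 38.3 to 26.1 RPKM, and each overlapped the next. The gene ena-1 moved from place 9, at 11.3 ± 1.95 RPKM, to place 4, at 37.6 ± 7.33 RPKM. In the opposite direction tcu-1 moved from place 6 to place 10, at 10.1 ± 2.30 RPKM, where it overlapped pmr-1. At the bottom, tzn-2 and then tzn-1 kept places 11 and 12 in both strains, with no overlap between them.

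**Figure D5:**
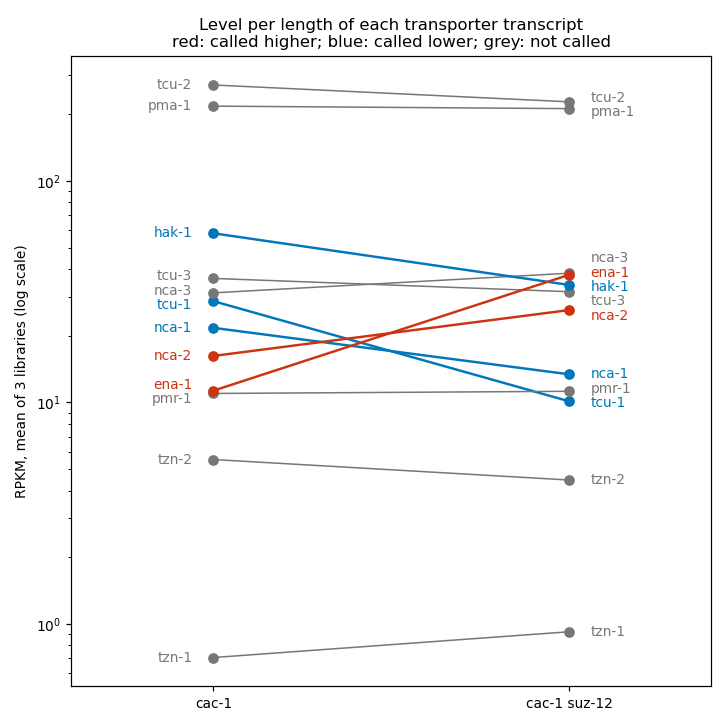
Mean RPKM over 3 libraries of each transporter transcript in the cac-1 knockout (left) and the cac-1 suz-12 double knockout (right), on a log scale, with lines joining the same gene. The red line of ena-1 runs from 11.3 to 37.6 RPKM and crosses the blue line of tcu-1, which runs from 28.6 to 10.1 RPKM.

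The genes directly beside the other called transporter genes were compared in the same way. Beside hak-1, msh4 was called lower with a log2 fold change of -0.85 (edgeR adjusted p = 0.0438), and its call was lost in 4 of the 6 fits that left out one library and with limma-voom. The gene on the other side, NCU00792, had a log2 fold change of 0.20 (edgeR adjusted p = 0.420). Of the direct neighbours of nca-1, nca-2 and ena-1 none was called by edgeR with TMM scaling and all libraries, with adjusted p-values of 0.537 for pcb-3 and 0.0981 for NCU03306, 0.894 for NCU17069 and 0.531 for nst-1, and 0.692 for NCU05047 and 0.0553 for NCU05045. The next gene out on each side of nca-2 was called higher, NCU04735 at 0.93 (edgeR adjusted p = 0.0135) and NCU04738 at 0.90 (edgeR adjusted p = 0.000412). The genes at that place beside nca-1, ena-1 and hak-1 were not called. All of these farther genes were picked out after their values were seen. NCU03306 was called lower by edgeR on library totals (adjusted p = 0.0269), with upper-quartile scaling (0.0450) and without single-knockout replicate 3 (0.0359). NCU05045 was called lower in the same 3 settings (edgeR adjusted p = 0.0138, 0.0348 and 0.00398) and by DESeq2 (adjusted p = 0.0349). With one library left out, NCU03306 ran from -0.49 to -0.27 and NCU05045 from -1.09 to -0.28. The highest edgeR adjusted p in those fits was 0.274 for NCU03306 and 0.485 for NCU05045. Over all 12 genes, 23 direct neighbours could be tested, of which 4 were called higher and 2 lower, or 26.1% against 28.1% of all genes. Those not yet named, NCU03291 beside pmr-1 (0.52, edgeR adjusted p = 0.0445) and NCU07620 beside tzn-1 (0.67, edgeR adjusted p = 0.0467), were called higher. Without single-knockout replicate 2 neither was called (edgeR adjusted p = 0.171 and 0.134), nor on library totals (0.235 and 0.154).

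Mycelium can carry conidia and sexual structures, and genes of these stages were measured beside the transporters. Over all genes tested, edgeR called 28.1%. Of 7 conidiation genes, it called con-6 higher (1.71 on the log2 scale) and con-8 lower (-1.80) and left 5 uncalled. Among the uncalled genes, acon-3 (0.81) and fl (0.37) had changes above 0, and con-10, con-13 (-0.54) and eas (-0.53) below 0. One of these, con-10, had a log2 fold change of -0.98 (edgeR adjusted p = 0.0550) and was called lower by DESeq2 and limma-voom. It was also called lower by edgeR on library totals (adjusted p = 0.00749), with RLE scaling (0.0490) and with replicate number as a block (0.00910). With one library left out, con-10 ran from -1.27 to -0.49, with an edgeR adjusted p from 0.000795 to 0.159. Its libraries overlapped between the strains. The summed level of the 7 genes ran from 197 to 361 CPM in the single knockout and from 157 to 194 CPM in the double knockout. Most of the single-knockout sum was con-8, at 175, 128 and 227 CPM, against 53.6, 47.1 and 51.9 CPM in the double knockout. In the opposite direction, con-6 went from 20.9, 17.7 and 18.8 CPM to 82.5, 53.5 and 50.9 CPM. Of 6 genes of sexual development, edgeR called app higher and poi-2 lower. Their summed level ran from 1533 to 3072 CPM in the single knockout and from 1058 to 1791 CPM in the double knockout. Most of it was asd-1, at 1613, 1402 and 2883 CPM and at 1253, 952 and 1649 CPM. DESeq2 also called asd-1 lower (adjusted p = 0.0424). So did edgeR on library totals (adjusted p = 0.00994) and with replicate number as a block (0.00596). With one library left out, asd-1 ran from -0.84 to -0.24, with an edgeR adjusted p from 0.0417 to 0.440. The call of app was lost on library totals (edgeR adjusted p = 0.184) and without single-knockout replicate 1 (0.0645) or 3 (0.0763) or double-knockout replicate 1 (0.163). None of these 13 genes was at 0 in all libraries. Their part in the changes of the transporter genes was not tested.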

How the data were processed

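RNA was measured in 6 libraries. The authors deposited a table of raw counts per gene, with one column per alignment file per the file headers, so replicates were not pooled. Trim Galore 0.6.10, STAR 2.7.11, SAMtools 1.21 and Subread 2.0.6 are named in the submitters' processing notes, without roles. The genome build and the use of strand in counting are not given in the sources used here. A further 36 count columns match no label of these samples and were left out. Coordinates are those of the table's counted intervals, and linkage groups come from matching 9723 of 9757 identifiers to the RefSeq table of the NC12 assembly. The length in bp in the deposited table was used for RPKM. It was a multiple of 3 for 98.8% of genes, so it is mostly coding length. Distances to a chromosome end were measured from the first base or to the end of the last RefSeq gene, whichever was nearer. The full chromosome length was not used.

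Counts were fitted with edgeR 4.0.16 in R 4.3.3 (default filterByExpr, leaving 9148 genes and dropping 609, TMM factors, robust quasi-likelihood, no block). P-values are two-sided and Benjamini-Hochberg adjusted over all genes tested, and genes were called at an adjusted p under 0.05. The SE is the log2 fold change divided by the square root of F. CPM values use TMM-scaled totals. Of values from 1 to 20 counts, 80.9% were even, so a count is not taken as 1 fragment. In the shallowest library 3 counts equal 0.351 CPM, a floor that covers counting error only. Replicates differed by more than counting noise (chi-square of 23.2 to 107 per degree of freedom). The counted spans of the 12 genes overlapped no other gene, and reads shared between near-identical copies were not studied.

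The 12 genes and all lists were chosen with earlier results of these data known. Every one of the 12 genes is named, as are the direct neighbours of those that were called and the called genes of each list. Neighbours of other members and genes farther along were picked after their values were seen. Lists were matched by symbol, and a list of 6 further ion transport genes and one by RefSeq product gave no gene, the latter because the table has no product column. Alternatives were other scalings, filters, DESeq2 1.42.0, limma-voom (limma 3.58.1), halved counts, a replicate block, an adjusted p under 0.01 and leaving out each library. The fit was also run on simulated counts in which all genes shared the same spread. That setting is simpler than these data, so the run does not check the calls made here.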

Additional observations from a re-analysis of the deposited data

How the results depend on the processing

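Among the 12 transporter genes, 179 of 191 values under the alternatives kept their direction and their side of the threshold, 6 were weaker and 6 reversed. Members called higher numbered 1 on library totals, where nca-2 stood at 0.51, and 2 in every other alternative. Members called lower numbered 2 to 3 when each library in turn was left out. In those fits hak-1 ran from -1.18 to -0.58, pmr-1 from -0.23 to 0.20 and pma-1 from -0.13 to 0.12, and at an adjusted p under 0.01 hak-1 (-0.77) was no longer called. The value of pmr-1 was -0.14 on library totals, -0.036 with upper-quartile scaling and -0.00078 with the replicate block. The median of all genes was -0.20 on library totals, -0.071 with upper-quartile scaling and 0.0027 with the replicate block. The cause of the reversals was not tested.

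Over all genes, library totals gave 1861 lower calls against 1093 and 35.8% higher calls against 57.5%, and an adjusted p under 0.01 gave 983 higher and 543 lower. Leaving out one library gave 1129 to 1535 higher and 650 to 1139 lower calls, the fewest lower without double-knockout replicate 1 (650) and replicate 3 (695). Among the other named genes, which were mostly not called, reversals were found for trk (-0.14 on library totals, -0.0099 with upper-quartile scaling, and from -0.078 to 0.19 with one library left out), NCU05047 (-0.036) and nst-1 (-0.048) on library totals, and cax (0.016 at 10 counts or more in every library, 0.033 with limma-voom, 0.019 with the replicate block and 0.0024 with halved counts). With one library left out, cax ran from -0.18 to 0.095, nst-1 from -0.028 to 0.27, NCU17069 from -0.36 to 0.15 and T from -0.79 to 0.34.

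Deviations of libraries with the same replicate number correlated at -0.016, 0.14 and 0.21, so the numbers were not taken to pair them. The replicate block called 3009 genes against 2569 and changed no call among the 12 genes.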
